A study of Mus musculus with 16 samples.

Results

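Genes known as direct targets of the transcription factor p53 were followed in livers of mice made to lose chromatin remodelling subunits. The targeted subunits were Arid1b alone or Arid1a and Arid1b together. The p53 targets were Cdkn1a, Mdm2, Ccng1, Phlda3, Bax, Trp53inp1, Eda2r, Sesn2, Zmat3 and Gdf15. The 10 genes were taken by name, with earlier results of these data known. Each had a row among the 24421 rows of both deposited count tables. All 10 also passed the low-count filter in both experiments. In the DKO experiment Phlda3 and Eda2r had only 6 to 9 counts in each control library and passed through the double knockout libraries.

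RNA from whole mouse liver was sequenced in 16 libraries, 4 in each of 4 groups. The double knockout (DKO) mice were ARID1A f/f, ARID1B f/f and Alb-Cre+, and their controls carried the same floxed alleles of both genes without Cre (Alb-Cre-). The single knockout (BKO) mice were ARID1B f/f and Alb-Cre+, and their controls were ARID1B f/f and Alb-Cre-. Alb-Cre is a Cre recombinase under the albumin promoter, which is active in hepatocytes and in the embryonic precursors that they share with bile duct cells. Which cells of these livers carried the deletion was not measured. Cre and the deletion are present in the same mice and cannot be told apart, and no group lacks Arid1a alone. The labels give no age or sex. Libraries carry animal tags, and whether each came from a separate animal rests on these tags. BKO controls F5 and F5-2 may come from 1 animal, which would leave 3 control animals, and where libraries share an animal the p-values measure only the spread between libraries.

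The protein p53 is held at a low level by the ubiquitin ligase Mdm2 and accumulates when DNA is damaged, when ribosome assembly fails or when growth signals are unbalanced. It binds DNA as a tetramer at sites made of paired copies of a short palindromic half-site and raises transcription of genes that stop the cell cycle, repair damage, limit growth signals or start apoptosis. Some of its targets encode its own inhibitors, which closes a feedback loop. In the liver, hepatocytes rarely divide, and p21, the product of Cdkn1a, is among the p53 targets that rise after injury or partial removal of the organ.

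The sites that p53 can read are shown first, because binding by p53 is what groups the 10 genes. RefSeq promoter windows on GRCm38.p6, each 300 bases long with 250 before the start site and 50 after it, were found for 8 of the 10 genes, with 10 windows in all. Trp53inp1 and Zmat3 had no entry. An exact p53 half-site of 10 bases lay in a window of Cdkn1a, Mdm2, Ccng1 and Bax, which is 4 of 8 genes, against 8.36% of 32851 promoter windows of the table. A p53 element, taken as a pair of half-sites with no gap and with up to 2 mismatches over its 20 bases, lay in windows of 2 of 8 genes, Cdkn1a and Ccng1, and in 0.798% of all windows. With up to 3 mismatches it lay in 3 of 8 genes and in 6.29% of all windows. Genes are listed as p53 targets partly because such sites are near them, so these counts describe the genes and test nothing. The best element in each of these 3 windows is written 5′ to 3′ on the strand of the gene, with capitals for the bases that match the p53 element.
Cdkn1a: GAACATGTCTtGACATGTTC
Ccng1: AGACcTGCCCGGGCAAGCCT
Bax: AGcaTAtCCCAGGCAAGCTT
The Cdkn1a element, at chr17:29090928-29090947 on the plus strand, matched 19 of 20 bases and began at position -51 from the upstream start site. The Ccng1 element, at chr11:40755462-40755481 on the minus strand, also matched 19 of 20 and began at position -195. The Bax element, at chr7:45467090-45467109 on the minus strand, matched 17 of 20 and began at position -211. Mdm2 held a single half-site, GAACTTGCCT, at chr10:117710935-117710944 on the minus strand.

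The 250 bases before the start are printed for Cdkn1a and Ccng1, which hold the closest elements, and for Phlda3, which had the highest fold of the 10 genes in DKO livers (without control WT-7139 it was 10.1-fold, below the 11.2-fold of Cdkn1a). Capitals mark exact p53 half-sites.
Cdkn1a: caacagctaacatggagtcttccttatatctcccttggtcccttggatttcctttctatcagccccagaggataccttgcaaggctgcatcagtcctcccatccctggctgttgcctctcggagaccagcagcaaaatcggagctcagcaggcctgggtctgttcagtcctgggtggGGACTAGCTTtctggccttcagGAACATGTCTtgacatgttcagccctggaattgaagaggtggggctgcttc
Ccng1: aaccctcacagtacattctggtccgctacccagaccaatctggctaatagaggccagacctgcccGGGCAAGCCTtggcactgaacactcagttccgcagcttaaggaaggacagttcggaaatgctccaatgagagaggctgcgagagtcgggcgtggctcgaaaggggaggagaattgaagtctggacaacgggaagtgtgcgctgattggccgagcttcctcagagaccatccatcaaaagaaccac
Phlda3: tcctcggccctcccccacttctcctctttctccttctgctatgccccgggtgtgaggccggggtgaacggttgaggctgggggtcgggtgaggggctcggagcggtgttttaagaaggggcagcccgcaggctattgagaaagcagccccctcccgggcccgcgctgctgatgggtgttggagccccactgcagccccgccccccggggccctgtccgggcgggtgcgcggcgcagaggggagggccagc
The Cdkn1a stretch is chr17:29090729-29090978 and holds both half-sites found near that gene, and the window at its downstream start site, 29093769, held none. The Ccng1 stretch is chr11:40755287-40755536 on the minus strand and holds 1. The Phlda3 stretch is chr1:135765835-135766084 on the plus strand and holds none, which says only that these letters are not in this window. The stress factor motif TGATGNAA, searched on both strands, was in none of the windows of the 8 genes and in 3.97% of all windows. The GC-box core GGGCGG was in windows of Cdkn1a, Mdm2, Phlda3, Bax, Eda2r and Sesn2 and in 35.7% of all windows. A TATAAA box was found for Eda2r and in 13.6% of all windows.

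DKO-experiment libraries held 8699417 to 11031443 counts each, and the BKO experiment was sequenced deeper, with 21151726 to 40551934 per library. The targeted gene Arid1b was lower in both knockouts, by 0.57 on the log2 scale in DKO (edgeR adjusted p = 0.0167) and by 0.94 in BKO (edgeR adjusted p = 0.00154). The DKO call of Arid1b was lost without DKO-7068 (0.0515) and with total counts (-0.39, 0.0910). Arid1a was at 108 CPM in DKO and 124 in its controls, a log2 change of -0.20 (edgeR adjusted p = 0.149), and counts over the whole gene do not show the state of the floxed exons. The hepatocyte marker Alb, which encodes albumin, made up 3.76% to 6.38% of DKO counts and 8.62% to 9.94% of control counts. In bulk tissue, fewer cells of a type and less RNA per cell cannot be told apart. Levels below are normalized CPM, counts scaled to a common library size, set within each experiment by the trimmed mean of M-values (TMM).

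In DKO livers 9 of the 10 p53 targets were higher than in controls and none was lower, at a Benjamini-Hochberg adjusted p under 0.05 in edgeR's quasi-likelihood test over 12848 genes. Of all genes tested, 19.2% were higher and 16.6% were lower, 35.8% in all. The median log2 change of the 10 genes was 0.94, beside 0.02 for all genes tested. Gdf15 was the gene that missed the threshold. In 8 of the 10 genes every DKO library lay above every control, an arrangement found for 18.5% of all genes tested, and the exceptions were Trp53inp1 and Gdf15. Phlda3 and Eda2r are among the 9 and the 8. Both passed the low-count filter only through the DKO libraries, so a high level there was a condition of their test. Summed, the 10 genes made up 0.0440% to 0.0772% of each DKO library and 0.0244% to 0.0328% of each control.

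Cdkn1a (ENSMUSG00000023067) encodes p21, an inhibitor of cyclin-dependent kinases and the main arm through which p53 stops the cell cycle. It lies at chr17:29090976-29100727 (GENCODE M21, GRCm38) with an annotated antisense gene, AC167363.2, whose reads cannot be told apart from it without the strand setting. Cdkn1a stood at 113, 73.4, 62.8 and 135 CPM in libraries DKO-7068, DKO-7070, DKO-7112 and DKO-7137. It stood at 12.2, 6.78, 6.84 and 34.6 CPM in controls WT-7067, WT-7069, WT-7114 and WT-7139. All DKO libraries were above all controls, and WT-7139 was well above the other controls. The means were 96.2 ± 33.8 and 15.1 ± 13.2 CPM (SD, n = 4 each), a 6.37-fold rise with a log2 change of 2.69 (SE 0.571, edgeR adjusted p = 0.00810). Without WT-7139 the control mean was 8.61 CPM and the rise was 11.2-fold (log2 change 3.48, edgeR adjusted p = 0.000404).

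Ccng1, which encodes cyclin G1, a p53 target that recruits a phosphatase to Mdm2, was among the most abundant members. It stood at 131, 111, 73.9 and 91.7 CPM in the DKO libraries, in the order given for Cdkn1a, and at 48.6, 43.7, 52.1 and 52.9 CPM in the controls. The control values were close together and the lowest DKO library, DKO-7112, was still above all of them. Ccng1 rose 2.07-fold (log2 change 1.05, SE 0.165, edgeR adjusted p = 0.000831). Zmat3, which encodes an RNA-binding zinc finger protein that acts in p53-dependent growth suppression, stood at 41.1, 39.9, 30.8 and 28.0 CPM in DKO and at 24.2, 22.9, 15.5 and 16.0 CPM in controls. Its groups did not overlap, and the libraries with tags of the 70xx series were the higher ones on both sides. Zmat3 rose 1.78-fold (log2 change 0.83, SE 0.185, edgeR adjusted p = 0.00570).

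Mdm2 encodes the ubiquitin ligase that marks p53 for degradation and is itself induced by p53. It stood at 58.5, 48.7, 45.8 and 50.6 CPM in DKO and at 35.7, 36.5, 33.0 and 40.9 CPM in controls. The groups did not overlap, and the gap between the lowest DKO and the highest control library was small beside that of Ccng1. Mdm2 rose 1.39-fold, from 36.5 ± 3.28 to 50.9 ± 5.43 CPM (SD, n = 4 each; log2 change 0.48, SE 0.111, edgeR adjusted p = 0.00689), the lowest fold of the 9 genes that rose. Phlda3 encodes a pleckstrin homology domain protein that blocks the kinase Akt at the membrane. It stood at 10.4, 12.0, 7.92 and 3.94 CPM in DKO, from 38 to 133 counts, and at 0.672, 0.859, 1.01 and 1.14 CPM in controls, from 6 to 9 counts. Every control was near the lower end of detection and every DKO library was above it, with DKO-7137 the lowest of the 4. Phlda3 rose 9.32-fold (log2 change 3.22, SE 0.376, edgeR adjusted p = 0.000143), and it was the 1 member that passed a test against a 2-fold change.

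Among the members that act in cell death, Bax encodes the pore-forming protein of the mitochondrial outer membrane. Its locus, chr7:45461697-45466898, shares its strand with the predicted gene Gm45808. Bax stood at 15.4, 17.5, 13.7 and 14.5 CPM in DKO and at 10.9, 8.31, 9.76 and 7.95 CPM in controls. The 4 DKO libraries were close to each other and all above the controls. Bax rose 1.66-fold (log2 change 0.73, SE 0.149, edgeR adjusted p = 0.00353). Eda2r, on the X chromosome, encodes a receptor of the tumour necrosis factor receptor family for the A2 form of ectodysplasin. It was the least abundant member, at 2.79, 1.98, 1.74 and 1.55 CPM in DKO (15 to 34 counts) and 0.784, 0.668, 1.01 and 0.757 CPM in controls (6 to 9 counts). The groups did not overlap, although the counts behind each value were few. Eda2r rose 2.50-fold (log2 change 1.33, SE 0.317, edgeR adjusted p = 0.00821).

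Trp53inp1 encodes a stress-induced nuclear protein that promotes p53 phosphorylation and also acts in autophagy. It stood at 263, 170, 171 and 334 CPM in DKO and at 112, 144, 142 and 181 CPM in controls. DKO-7070 and DKO-7112 were below the highest control, WT-7139, so the groups overlapped. The log2 change was 0.70 (SE 0.236, edgeR adjusted p = 0.0423), a 1.62-fold rise with the highest levels in DKO-7068 and DKO-7137. The call was lost when either of these was left out (edgeR adjusted p = 0.0982 and 0.0981), when WT-7067, WT-7069 or WT-7114 was left out (0.109, 0.0862 and 0.0949), with limma's voom (0.0509), with no count filter (0.0507) and with all 16 libraries in one fit (0.140). Including the test against a 2-fold change, Trp53inp1 lost its call under 9 of 19 alternatives, and each of the other 8 genes lost it under at most 1.

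Sesn2 and Gdf15 are targets of p53 and also of the integrated stress response factor ATF4. Sesn2 encodes sestrin 2, a leucine sensor that restrains the growth kinase complex mTORC1, and its locus at chr4:132492032-132510501 overlaps Gm12981 on the same strand. It stood at 29.5, 22.4, 23.6 and 32.1 CPM in DKO and at 11.5, 11.6, 10.8 and 15.8 CPM in controls. All DKO libraries were above all controls by a wide margin. Sesn2 rose 2.16-fold (log2 change 1.12, SE 0.166, edgeR adjusted p = 0.000590). Gdf15, which encodes a circulating stress hormone that lowers appetite, stood at 3.94, 3.42, 5.43 and 3.32 CPM in DKO and at 1.12, 0.573, 1.12 and 8.58 CPM in controls. WT-7139 was above every DKO library, while the other 3 controls were below all of them. With all libraries the log2 change was 0.54 (SE 0.740, 95% interval -1.14 to 2.22, edgeR adjusted p = 0.613). Without WT-7139 the change was 4.29-fold (log2 change 2.09, edgeR adjusted p = 0.00209), and 10 of 10 members were then higher.

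**Figure D1:**
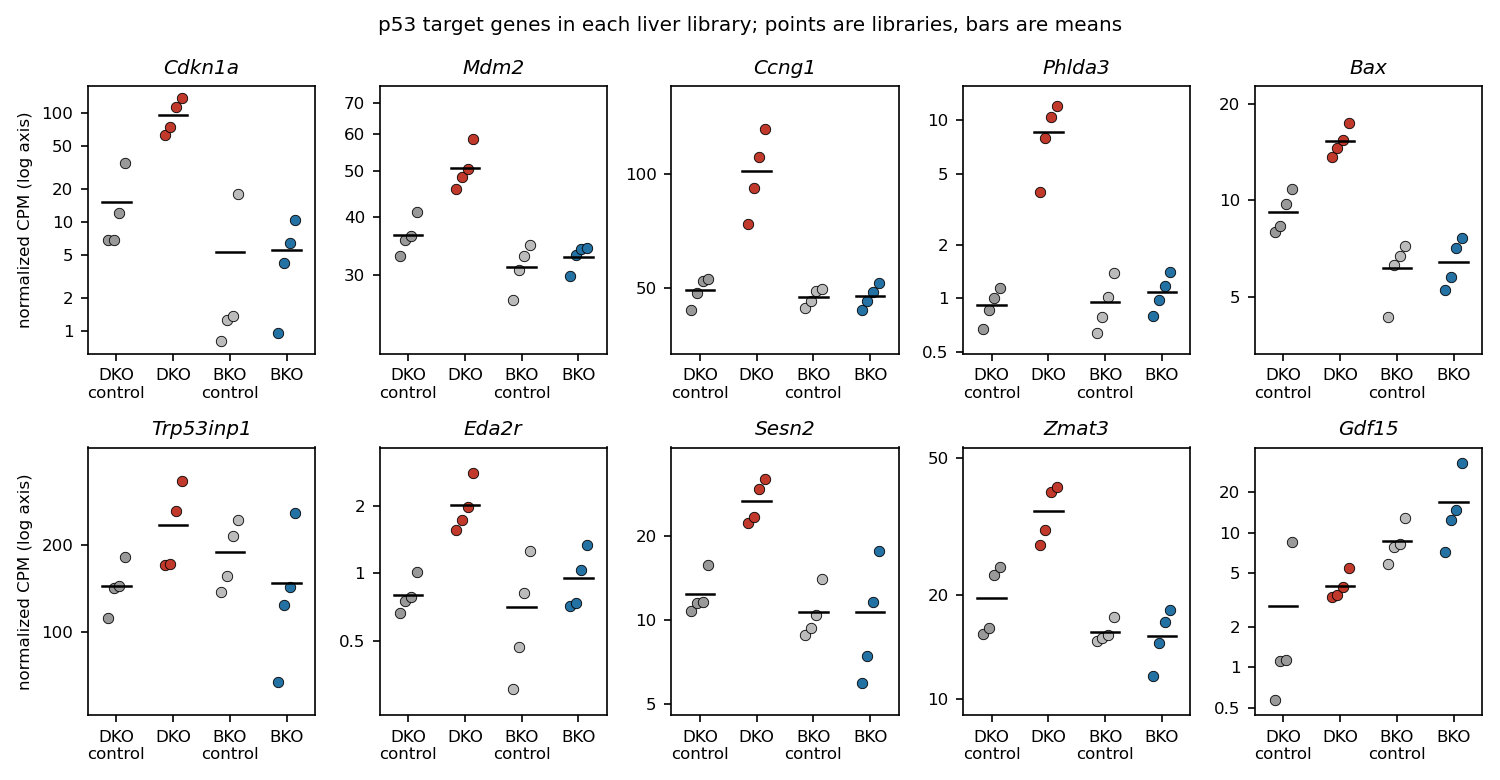
Normalized CPM of the 10 p53 target genes in each of the 16 libraries, on log axes that differ between panels; each point is 1 library, libraries are spread sideways in order of level, and the bars are group means. DKO points lie above all their controls in 8 of the 10 panels, with overlap for Trp53inp1 and Gdf15, while BKO and its controls overlap in every panel.

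Levels were also compared between genes per length, as CPM per kilobase of annotated exon. In DKO controls Trp53inp1 was the highest at 22.4, followed by Ccng1 at 14.0 and Mdm2 at 7.18, and Eda2r was the lowest at 0.137. In DKO livers Cdkn1a moved from the fifth place to the third, at 27.1 CPM per kilobase beside 29.0 for Ccng1, and the spread of Cdkn1a over its 4 libraries covers that gap. Phlda3 moved from the ninth place to the seventh, at 5.49 CPM per kilobase. Trp53inp1 stayed first, at 36.3, and Eda2r stayed last, at 0.342.

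The 4 DKO livers did not raise the 10 genes in the same proportions. DKO-7068 was the highest of its group for 4 genes (Mdm2, Ccng1, Eda2r and Zmat3), DKO-7137 for 3 (Cdkn1a, Trp53inp1 and Sesn2), DKO-7070 for 2 (Phlda3 and Bax) and DKO-7112 for Gdf15 alone. DKO-7137 was thus at the top for Cdkn1a, 8.94 times the control mean, and at the bottom for Phlda3, 4.28 times the control mean. DKO-7070 was at the top for Phlda3, 13.0 times the control mean, and the third of the 4 for Cdkn1a, at 4.86 times. Among controls, WT-7139 was the highest of the 4 for 7 of the 10 genes. DKO-7068 and DKO-7070 were the pair of DKO libraries closest to each other in counts over all genes, but they differed beyond sampling noise and were kept as separate libraries.

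**Figure D2:**
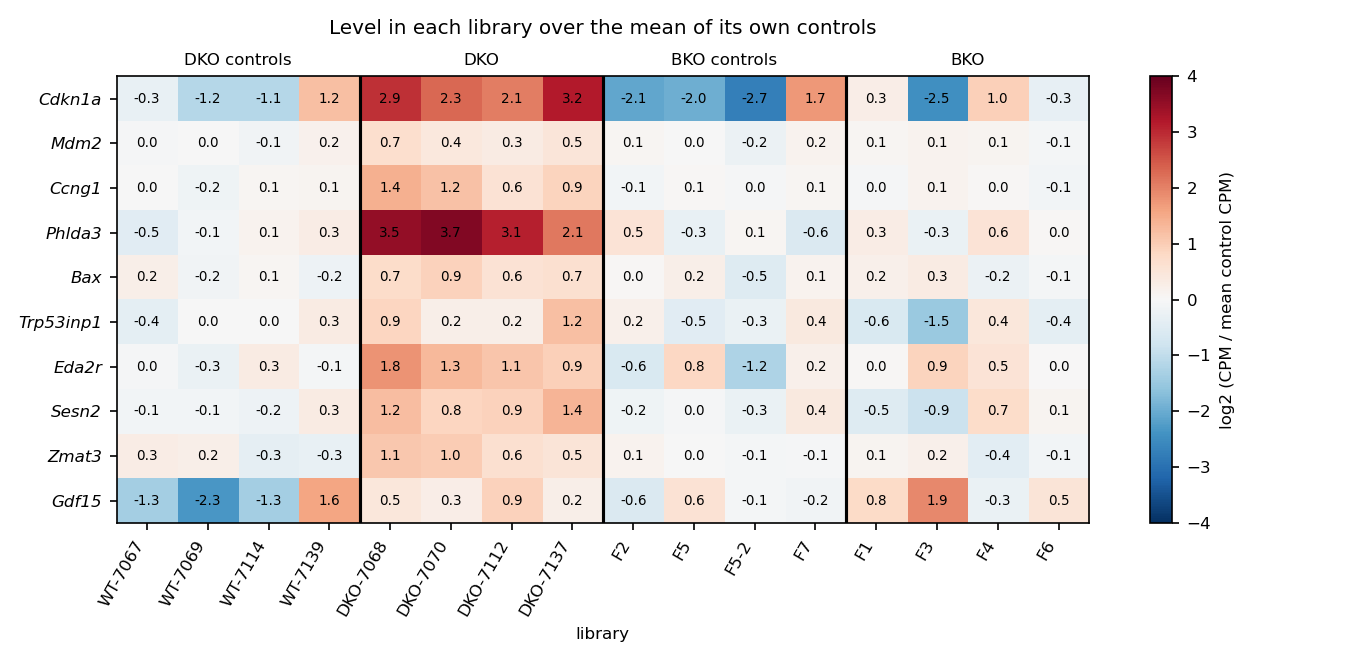
Each member's level in each library as a log2 ratio to the mean of the controls of its own experiment, with 1 column per library and 1 row per gene. The DKO columns are above 0 for all 10 genes, with Cdkn1a and Phlda3 the most raised, and the columns of BKO and of both control groups hold both signs.

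The animal tags fall into a 70xx and a 71xx series, which the labels do not explain, with 2 DKO and 2 control libraries in each. Within the 70xx series the fold was 9.84 for Cdkn1a, 14.6 for Phlda3 and 2.62 for Ccng1, and within the 71xx series it was 4.78, 5.53 and 1.58. For the 8 genes whose DKO and control libraries did not overlap, the same necessarily held within each series, which adds nothing to that result. Gdf15 was 4.35-fold higher in the 70xx series and stood at 0.901 of its controls in the 71xx series, which holds WT-7139.

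In BKO livers none of the 10 p53 targets was called higher or lower by edgeR, DESeq2 or limma's voom, and none reached an unadjusted p under 0.05 in edgeR. Few genes of any kind moved in that comparison: 0.185% of 14061 genes tested were higher and 0.398% were lower, 0.583% in all. The median log2 change of the 10 genes was 0.07, beside 0.0001 for all genes tested. No member had all BKO libraries above all controls, an arrangement found for 3.64% of genes.

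The precision of the BKO comparison differed greatly between members. Ccng1 stood at 46.2, 51.7, 48.9 and 43.7 CPM in F1, F3, F4 and F6 and at 44.4, 49.2, 46.2 and 49.7 CPM in controls F2, F5, F5-2 and F7, and the groups lay on top of each other. Its log2 change was 0.01 with a 95% interval of -0.18 to 0.20. Intervals were similarly narrow for Mdm2 (log2 change 0.07, -0.15 to 0.29) and Zmat3 (-0.03, -0.34 to 0.27). The DKO change of each of these 3 genes, 1.05, 0.48 and 0.83, lay outside its BKO interval. The interval for Phlda3 ran from -0.61 to 0.95 around 0.17, and those of Bax, Eda2r and Sesn2 ran from -0.36 to 0.50, from -0.55 to 1.46 and from -0.74 to 0.75. Of these, the DKO changes of Phlda3 (3.22), Bax (0.73) and Sesn2 (1.12) also lay outside, and that of Eda2r (1.33) lay inside. Such a comparison leaves out the error of the DKO change, and the difference was tested separately.

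Cdkn1a could not be measured closely in the BKO experiment. It stood at 6.38, 0.969, 10.4 and 4.24 CPM in the BKO libraries and at 1.26, 1.37, 0.813 and 18.0 CPM in the controls. Control F7 was the highest of the 8, while the other 3 controls were close to the lowest BKO library, F3. The log2 change was 0.06 with an interval from -2.84 to 2.96, which includes the DKO change. Without F7 the BKO mean was 4.79 times the control mean (log2 change 2.25, edgeR adjusted p = 0.322). F7 was also the highest control for Mdm2, Ccng1, Trp53inp1 and Sesn2.

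Trp53inp1 and Gdf15 were the other members with wide spread in the BKO experiment. Trp53inp1 stood at 124, 67.4, 257 and 143 CPM in BKO and at 215, 138, 157 and 245 CPM in controls, so the lowest and the highest library were both BKO. Its log2 change was -0.35 (95% interval -1.31 to 0.61, edgeR adjusted p = 0.811). Gdf15 stood at 14.7, 33.1, 7.14 and 12.4 CPM in BKO and at 5.85, 12.8, 8.17 and 7.77 CPM in controls. F3 was far above the rest, and the BKO mean of 1.95 times the control mean was 1.32 times without F3. The log2 change of Gdf15 was 0.97 (interval -0.17 to 2.11, edgeR adjusted p = 0.517).

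The difference between the knockouts, the DKO change minus the BKO change on the log2 scale, was tested in one fit of all 16 libraries with each knockout set against its own controls. It was above 0 for 3 of the 10 members at an adjusted p under 0.05, against 11.0% of 14050 genes tested, and below 0 for none, against 11.5%, with 22.5% of genes passing in either direction. The 3 were Phlda3 (3.03, 95% interval 1.98 to 4.08, edgeR adjusted p = 0.000375), Ccng1 (1.01, 0.61 to 1.40, edgeR adjusted p = 0.00105) and Zmat3 (0.83, 0.33 to 1.34, edgeR adjusted p = 0.0188). The median difference of the 10 genes was 0.92, beside -0.01 for all genes. The experiments differed in depth and were run as separate sets, and what the difference owes to that cannot be told apart from the knockout.

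For the other 7 members the difference did not pass. Sesn2 (1.08, edgeR adjusted p = 0.0555), Mdm2 (0.38, edgeR adjusted p = 0.0739) and Bax (0.63, edgeR adjusted p = 0.0767) had intervals above 0. For Cdkn1a the difference was 2.58 with an interval from -0.33 to 5.50 (edgeR adjusted p = 0.193), and it was 0.42 without control F7. Those of Trp53inp1 (1.02), Eda2r (0.84) and Gdf15 (-0.45) had intervals that included 0. Without BKO library F4, Sesn2 and Trp53inp1 passed as well, and without control F5-2, Mdm2 and Bax did, so that 5 members passed in each case.

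**Figure D3:**
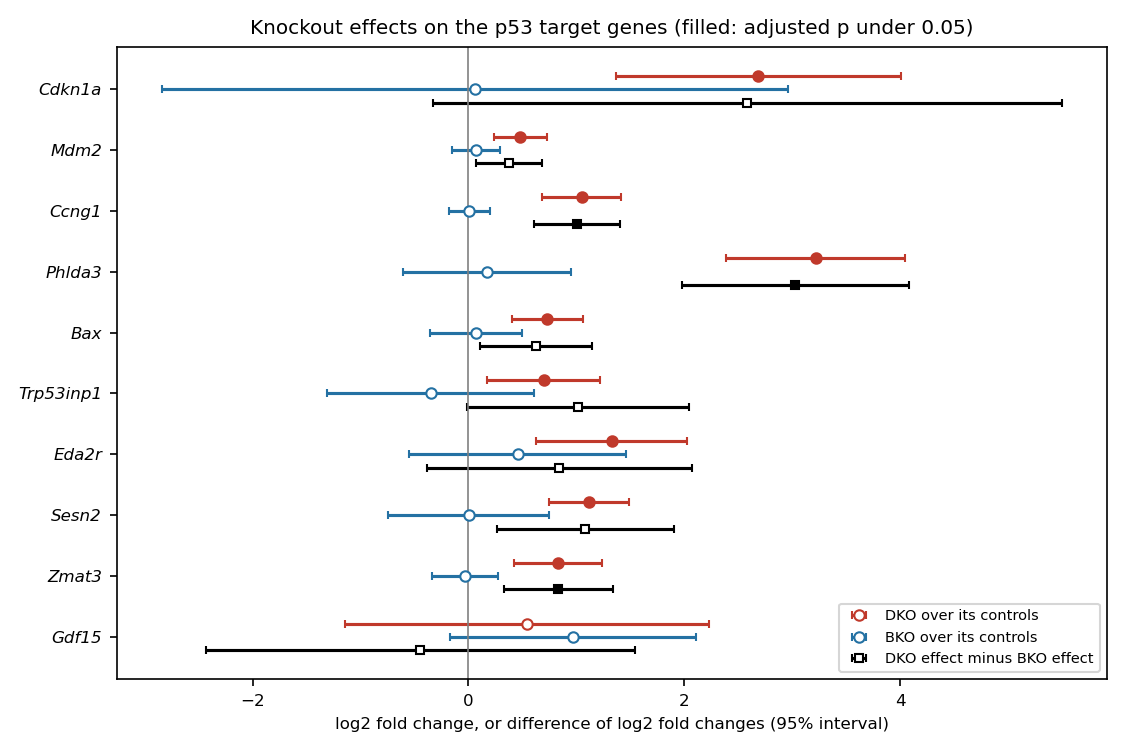
Log2 fold change of each member over its own controls in DKO and in BKO, with 95% intervals. The DKO intervals lie above 0 for 9 genes and span 0 for Gdf15, and all 10 BKO intervals span 0, that of Cdkn1a from -2.84 to 2.96.

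The gene for p53 itself, Trp53, was higher in DKO livers. It stood at 27.9, 29.6, 23.8 and 30.4 CPM in DKO and at 13.3, 17.9, 18.4 and 13.9 CPM in controls, with no overlap, and WT-7139 was not among the higher controls. The means were 27.9 ± 2.94 and 15.9 ± 2.66 CPM (SD, n = 4 each; log2 change 0.81, edgeR adjusted p = 0.00150). In BKO the Trp53 log2 change was 0.15 (edgeR adjusted p = 0.743), and the difference between the knockouts was 0.63 (edgeR adjusted p = 0.0315), a call lost without any 1 of DKO-7068, DKO-7070, DKO-7137, WT-7067, WT-7139, F3, F4, F5 and F7, with the highest adjusted p of these without WT-7067 (0.0743). Its product is regulated mainly at the protein level, which was not measured here.

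Of 13 tested genes for p53 and its regulators, 3 rose in DKO, 1 fell and 9 did not pass, with a median log2 change of 0.02. The shares over all genes tested were 19.2% higher and 16.6% lower. Beside Trp53, the checkpoint kinase genes Chek1 (log2 change 1.64, edgeR adjusted p = 0.00971) and Chek2 (1.00, edgeR adjusted p = 0.0302) rose, the latter losing its call without DKO-7068 (0.102), DKO-7070 (0.0748), WT-7069 (0.0800) or WT-7139 (0.0759). Rfwd2, the older symbol of the p53 ubiquitin ligase gene Cop1, fell from 38.6 to 27.6 CPM (edgeR adjusted p = 0.00288, and 0.0743 with total counts). Mdm4, the partner of Mdm2, was at 65.7 CPM in DKO and 70.1 in controls (edgeR adjusted p = 0.496), and the phosphatase gene Ppm1d at 8.69 and 7.83 (edgeR adjusted p = 0.546). Cdkn2a, the Arf and p16 locus, had 13 counts in all DKO libraries and 0 in all controls, too few to test. Against a limit of 3 counts over the control group its mean was at least 3.65-fold higher.

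Of 27 other known p53 targets tested in DKO, 9 rose, 2 fell and 16 did not pass, beside 19.2% higher and 16.6% lower of all genes tested, and their median log2 change was 0.37. In the cell cycle arrest group, 2 of 4 rose: Btg2, an antiproliferative gene, from 14.7 ± 5.43 to 150 ± 103 CPM (SD, n = 4 each; log2 change 3.36, edgeR adjusted p = 0.00167), and Gadd45a (1.90, edgeR adjusted p = 0.00194). DKO-7137, the highest DKO library for Cdkn1a, was also the highest for Btg2, at 304 CPM. Without DKO-7137 the log2 change of Btg2 was 2.76 (edgeR adjusted p = 0.000445). Plk3 (0.92) and Plk2 (-0.28) did not pass (edgeR adjusted p = 0.161 and 0.361), but without WT-7069 the change of Plk3 was 1.54 (edgeR adjusted p = 0.00436).

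In the cell death group, 3 of 10 rose and 1 fell. The death receptor gene Tnfrsf10b went from 0.525 to 5.42 CPM (log2 change 3.34, edgeR adjusted p = 0.000598), the nuclease gene Aen rose (0.99, edgeR adjusted p = 0.00429), and so did Apaf1, the core of the apoptosome (0.89, edgeR adjusted p = 0.00623). Perp, a desmosomal p53 target, fell from 79.1 to 51.3 CPM (edgeR adjusted p = 0.00112). Fas and Bbc3, which encode a death receptor and the BH3 protein Puma, had log2 changes of 0.31 and 0.37 (edgeR adjusted p = 0.212 and 0.728). With total counts Fas passed (0.0497), and the change of Bbc3 ran from -0.0892 without DKO-7137 to 1.23 without WT-7139.

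In the repair group, Polk and Ddb2 rose (0.60 and 0.71 on the log2 scale, edgeR adjusted p = 0.00401 and 0.0181) and Xpc fell (-0.32, edgeR adjusted p = 0.0489), out of 5 tested. The call of Ddb2 was lost without DKO-7068 (edgeR adjusted p = 0.0620), DKO-7070 (0.0513) or WT-7114 (0.0508). That of Xpc was lost without any 1 of the 8 libraries, with adjusted p of 0.0763 without DKO-7068. Of 8 targets with metabolic or other roles, 2 rose: Pvt1, a long noncoding RNA, from 1.35 to 7.53 CPM (log2 change 2.45, edgeR adjusted p = 0.000435), and Ephx1, a microsomal epoxide hydrolase, from 313 to 561 CPM (0.84, edgeR adjusted p = 0.00332). Sesn1 and Tigar, from the same group of 8, had log2 changes of -0.0044 and -0.69 (edgeR adjusted p = 0.985 and 0.0919). Tigar passed without WT-7114 (0.0447) or WT-7139 (0.0472) and with the tag series as a batch (0.0181). In this group 4 of 8 genes had log2 changes above 0.

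In BKO, 1 of 28 of these other targets was called, and it was lower: Sulf2, a heparan sulfatase gene, at 12.0 CPM against 25.9 (log2 change -1.11, edgeR adjusted p = 0.0221), a call lost without BKO libraries F1 (0.0725) or F6 (0.0777) or controls F2 (0.0748) or F7 (0.0526). The difference between the knockouts passed for 7 of 28 upwards and 1 downwards, beside 11.0% and 11.5% of all genes tested. Btg2 (3.64, edgeR adjusted p = 0.00372), Pvt1 (2.51, edgeR adjusted p = 0.00163) and Tnfrsf10b (3.33, edgeR adjusted p = 0.00795) had the largest of these differences, and Perp was the 1 below 0 (-0.65, edgeR adjusted p = 0.00137, and 0.0926 with total counts). Without F4 the Tnfrsf10b difference was 3.92 and without DKO-7137 that of Btg2 was 3.04, and both passed.

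The proteins that Bax and p21 act with were followed too. Of 11 tested Bcl2 family genes, 4 rose and 1 fell in DKO, with a median log2 change of 0.36. Over all genes tested, 19.2% were higher and 16.6% lower. Among the 4 was Bak1, the other pore-forming protein beside Bax, named here after its values were seen, which went from 17.4 to 25.1 CPM (edgeR adjusted p = 0.0136). The others encode inhibitors of Bax: Mcl1 went from 101 to 176 CPM (edgeR adjusted p = 0.000272), Bcl2 from 3.81 to 9.44 CPM (edgeR adjusted p = 0.00248) and Bcl2a1b, which has near-identical copies that can share its reads, from 0.418 to 2.44 CPM (edgeR adjusted p = 0.000261). Bcl2l2, another inhibitor, fell by 0.34 on the log2 scale (edgeR adjusted p = 0.0194). The call of Bcl2l2 was lost without DKO-7068 (0.0522) and with total counts (-0.17, 0.335). In BKO the log2 changes of Mcl1 and Bcl2 were 0.03 and -0.02 (edgeR adjusted p = 0.934 and 0.987).

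The G1 phase list holds cyclins, their kinases, E2f1 and pocket proteins, and also other inhibitors of these kinases. Of 15 genes tested, 4 of them such inhibitors, 6 rose and none fell in DKO, with a median log2 change of 0.52. Among all genes tested, 19.2% rose and 16.6% fell. The inhibitor genes Cdkn1b, Cdkn1c, Cdkn2c and Cdkn2d did not pass. Rbl1 (1.41, edgeR adjusted p = 0.00119), Ccne1 (2.48, edgeR adjusted p = 0.00235) and E2f1 (1.40, edgeR adjusted p = 0.00248) had the smallest p. Ccnd1 (1.07, edgeR adjusted p = 0.123) and Cdk2 (-0.17, edgeR adjusted p = 0.555) did not pass, although Ccnd1 did in DESeq2 (adjusted p = 0.0382) and with all 16 libraries in one edgeR fit (0.0486). Of 17 tested cell cycle genes that are held down by p21 through the DREAM complex, all 17 rose, with a median log2 change of 2.36. Some of the 17 passed the low-count filter through the DKO libraries, so for these a high level in DKO was a condition of the test. Plk1 is one such gene, at 0.152 CPM per kilobase in controls and 2.32 in DKO. Top2a went from 4.13 ± 0.313 to 31.3 ± 7.07 CPM (SD, n = 4 each; edgeR adjusted p = 4.38e-06), and Plk1 (3.89, edgeR adjusted p = 9.84e-06) and Mki67 (2.60, edgeR adjusted p = 1.25e-05) rose likewise. Cdkn1a and the genes its product is known to repress were therefore both higher in the same bulk RNA, and whether they were higher in the same cells was not measured.

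In BKO, 2 of 15 of these DREAM genes rose, Mcm2 (1.53, edgeR adjusted p = 0.0377) and Chaf1a (1.33, edgeR adjusted p = 0.0429), and both calls were lost without BKO library F1 (0.119 and 0.0794). That of Mcm2 was also lost without F3, F4, F6, F2 or F5, and that of Chaf1a without any 1 of the 8 libraries. The difference between the knockouts was above 0 for 10 of 17 and below 0 for none. Among all genes tested, 0.185% were higher in BKO, and the difference passed upwards for 11.0% and downwards for 11.5%.

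The integrated stress response, the other pathway that drives Sesn2 and Gdf15, was read from ATF4 and CHOP targets. Of 16 tested in DKO, 6 rose and 10 did not pass, with a median log2 change of 0.58, beside 19.2% higher of all genes. Atf3 rose from 2.16 to 10.7 CPM (edgeR adjusted p = 0.000661) and Mthfd2 from 1.16 to 5.36 CPM (edgeR adjusted p = 0.00146). Slc7a11, a cystine transporter gene, had 68 counts in DKO and 0 in controls, at least 20.1-fold higher against a limit of 3 counts over the control group (edgeR adjusted p = 0.00117). Atf4 itself (-0.09) and Ddit3, which encodes CHOP (0.34), did not pass (edgeR adjusted p = 0.763 and 0.432). In BKO 1 of 14 was called, Atf5, at 196 CPM against 122 (0.68, edgeR adjusted p = 0.0328), a call lost without any 1 library except F5-2, with adjusted p of 0.0533 without F1. Among tested genes of the ectodysplasin pathway that Eda2r belongs to, the adaptor gene Traf3 rose (0.56, edgeR adjusted p = 0.00521), and Eda, whose product is the ligand, was at 2.69 CPM in DKO and 3.19 in controls (edgeR adjusted p = 0.658).

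**Figure D4:**
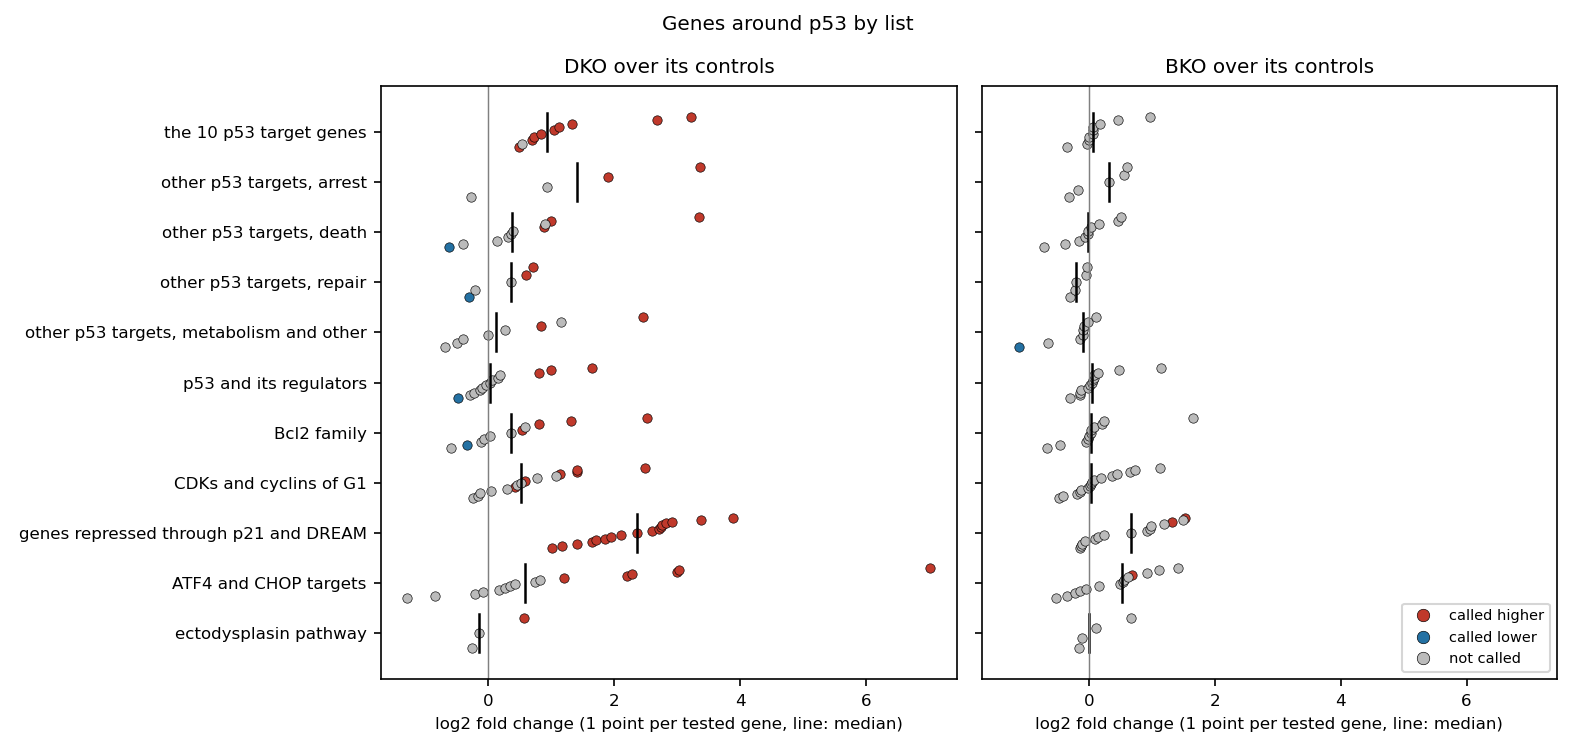
Log2 fold change of every tested gene in the 10 p53 targets and in the lists around p53, in DKO and BKO over their own controls; each point is 1 gene, red and blue points passed an adjusted p under 0.05 and the line is the median of the list. In DKO the medians are 0.94 for the 10 targets and 2.36 for the genes repressed through p21 and DREAM, and the point farthest to the right is Slc7a11, whose controls had no count, so that its position depends on the prior count of the fit.

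Markers of cells other than hepatocytes moved with the same groups. The summed level of 12 recruited macrophage markers was 200.0 to 1026 CPM in DKO libraries and 51.5 to 58.0 in controls, with 11 of 12 higher. That of 11 stellate cell markers was 1854 to 2796 CPM against 344 to 534, with 9 higher and 1 lower. The sum of 11 bile duct markers was 358 to 1227 CPM against 38.7 to 62.6, with 3 of 6 tested higher. Krt7, Krt19, Epcam, Cftr and Cldn4 were too low to test in DKO. Spp1 is in both the macrophage and the bile duct list, so these sums are not independent. It has 1648 bases of exon and stood at 229 CPM per kilobase in DKO and 15.1 in controls. The bile duct marker Tff3 stood at 410 and 0.338 CPM per kilobase. Of 3 tested lymphocyte and neutrophil markers all 3 were higher, at 11.2 to 34.0 CPM against 4.29 to 7.26 for the sum of 11. The sums of 8 Kupffer cell markers (476 to 532 against 325 to 558 CPM, 3 higher) and of 10 endothelial markers (507 to 562 against 488 to 610 CPM, 2 higher and 2 lower) overlapped. The 10 hepatocyte markers summed to 84318 to 105069 CPM against 130842 to 160830, with 5 lower and 1 higher. Beside these counts, 19.2% of all genes tested in DKO were higher and 16.6% lower. No marker of these lists was at 0 in all DKO libraries. Their part in the rise of the 9 p53 targets was not tested. DKO-7112 had the highest recruited macrophage sum and DKO-7137 the lowest. The bile duct sum, which also holds Spp1, was likewise highest in DKO-7112 (1227 CPM) and lowest in DKO-7137 (358 CPM). The part of Spp1 in this order was not separated, so it cannot be read as an order of macrophage content alone. Of the 10 members, Phlda3, Zmat3, Eda2r and Gdf15 were higher in DKO-7112 than in DKO-7137, and Cdkn1a, Mdm2, Ccng1, Bax, Trp53inp1 and Sesn2 were lower. These are single libraries, and no relation between the members and the macrophage markers was tested. In BKO edgeR called no marker in any of these 7 lists, with 5 of 8 tested bile duct markers and 1 of 9 tested recruited macrophage markers at an unadjusted p under 0.05, and recruited macrophage markers summed to 27.8 to 70.9 CPM against 36.0 to 71.8.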

How the data were processed

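Per the labels' protocols, TRIzol was used to extract liver RNA and a Nugen Ovation kit to make the libraries. The deposited values are raw counts, whole numbers that the authors gave per gene in 1 table for each experiment. The submitters' processing notes name featureCounts 1.6.2, HISAT2 2.1.0 and Trim Galore 0.4.1, and they name GRCm38, mm10 and GRCh38 as builds with no role for each. How strand, annotation and multiply assigned reads were handled is not stated there or in the labels.

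Groups follow the genotype in the labels. The test on counts was that of edgeR 4.0.16 under R 4.3.3 (filterByExpr, TMM, robust quasi-likelihood test), adjusted by Benjamini-Hochberg over all genes tested. A gene low in controls could pass the filter through the knockout libraries alone, so counts of tested genes that rose include genes selected in this way. Standard errors are the log2 change divided by the square root of F. The joint fit used the 24394 names that both tables share, since 27 names of the BKO table had turned into dates. No column lacked a sample. DESeq2 1.42.0 and limma 3.58.1 were alternatives. Scripts were tested on simulated counts.

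Genes named are the 10 members, Trp53, Mdm4, Cdkn2a, Ppm1d, Arid1a and Arid1b, and from each list around p53 up to 3 called genes per direction by smallest p and up to 2 others. Bak1, the inhibitor genes Cdkn1b, Cdkn1c, Cdkn2c and Cdkn2d, and the cell type markers were named beyond this rule. The members and lists were chosen with earlier results of these data known. Coordinates and exon lengths are from GENCODE M21, and promoter sequences from RefSeq on GRCm38.p6. The promoter search and its thresholds were chosen after the data had been seen. Among the named genes that are no members, Arid1a, Arid1b, Apaf1, Atf3, Atf5, Bcl2, Bcl2a1b, Bcl2l2, Ccnd1, Cdk2, Chaf1a, Rfwd2, Ddb2, Eda, Ephx1, Fas, Gadd45a, Mdm4, Mki67, Mthfd2, Plk1, Plk3, Polk, Pvt1, Rbl1, Sesn1, Slc7a11, Sulf2, Tigar, Top2a and Traf3 overlap another annotated gene, some on the opposite strand, whose reads may be part of their counts. The same holds for Bak1, Cdkn1c, Cftr, Krt7 and Spp1.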

Additional observations from a re-analysis of the deposited data

Results flagged for a closer look

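Of 40 groups of 4 libraries examined for a value far from the rest (10 members in 4 groups), 2 held one, and chance gives about 1 in 20. Gdf15 stood at 8.58 CPM in control WT-7139, against 0.573 to 1.12 CPM in the other 3 DKO controls. Cdkn1a stood at 18.0 CPM in control F7, against 0.813 to 1.37 CPM in the other 3 BKO controls.

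The DKO change minus the BKO change passed the test in the joint fit for 3 members, at 1.01 on the log2 scale for Ccng1, 3.03 for Phlda3 and 0.83 for Zmat3.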

How the results depend on the processing

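Over 19 alternative settings, 190 member values in DKO kept their sign. Of these 173 stayed on the same side of the threshold, 16 lost their call and 1 gained it (Gdf15 without WT-7139). Members higher in DKO numbered 8 to 10 when 1 library was left out and 1 (Phlda3) against a 2-fold change, where genes called fell to 888. Genes called in BKO numbered 355 with DESeq2's Wald test, 50 with all 16 libraries in one fit, 1 against a 2-fold change and 17 to 104 with 1 library left out. In the difference, members higher numbered 6 with total counts, 1 against a 2-fold change, and 3 to 5 with 1 library left out, and genes called fell to 508 against a 2-fold change. Total counts in place of TMM moved the median of all genes in DKO from 0.02 to 0.20 and the share of calls that were higher from 53.6% to 72.0%; in BKO the share went from 31.7% to 20.4% and in the difference from 49.1% to 77.9%, with a median of 0.27.

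Signs turned only for values that had not passed. With total counts, BKO changes were -0.0373 for Cdkn1a, -0.0561 for Ccng1 and -0.0604 for Sesn2, and DKO changes were 0.0866 for Mdm4, 0.18 for Sesn1, 0.0203 for Cdk2 and 0.0863 for Atf4. Sesn2 in BKO was -0.0014 with no count filter, -0.0063 with at least 1 CPM in 4 libraries, -0.0008 with DESeq2, -0.0874 with voom and -0.0312 with both F5 libraries summed, and Cdkn1a was -0.26 with them summed. Sesn1 in DKO was 0.0259 with voom and 0.0035 with the tag series as a batch. The Gdf15 difference was 0.50 with voom. With 1 library left out, BKO changes ran from -0.48 to 2.25 for Cdkn1a, -0.0317 to 0.0486 for Ccng1, -0.36 to 0.21 for Sesn2, -0.0634 to 0.16 for Bax and -0.13 to 0.0744 for Zmat3. The Gdf15 difference ran from -0.82 to 1.10, and DKO changes from -0.28 to 0.0506 for Atf4, -0.0892 to 1.23 for Bbc3, -0.63 to 0.0267 for Eda and -0.0836 to 0.14 for Sesn1. The cause was not tested. No paired analysis was possible because the groups share no replicate numbers. The planned element search in the genome around each start was not run, and the promoter windows took its place. Depth limits Phlda3 and Eda2r, with 6 to 9 counts in DKO controls.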

Other observations

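Across the 8 libraries of the BKO experiment, where no member was called, the level of Cdkn1a was set against that of each of the other 9 members on the log2 scale. None of the 9 relations passed adjustment. The closest was Sesn2, with Pearson's r = 0.67 (permutation p = 0.0751, adjusted 0.471) and Spearman's rho = 0.69 (permutation p = 0.0694, adjusted 0.625). Without F7 and F4, the libraries farthest from the median of Cdkn1a, r was 0.19. Leaving these out also narrows the range of Cdkn1a, which by itself can lower r, so no conclusion is drawn from the drop. These relations were examined after the data had been seen.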
